A study of Homo sapiens with 10 samples.

Results

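Collagens, laminins and integrins, the main structural proteins of the extracellular matrix and the receptors that bind it, were examined in SH-SY5Y cells, an established human neuroblastoma line used as a model of sympathetic neurons. Members were taken by name: every transcript cluster (the set of exon probes that the array assigns to a locus) annotated to exactly 1 gene symbol of a collagen chain, a laminin chain, an integrin alpha chain or an integrin beta chain. This gave 68 genes of 14232 with 1 symbol, each on a single row: 38 collagens, 9 laminins, 13 integrin alpha chains and 8 integrin beta chains. Total RNA from 5 arrays of untreated cells (controls 7, 11, 13, 17 and 19, as numbered in the sample titles) was compared with 5 arrays of cells treated with paraquat (paraquat 8, 12, 14, 18 and 20), a herbicide that generates superoxide by redox cycling. All arrays are of the same line; how much paraquat was given, and for how long, is not stated in the labels used here. Values are log2 expression values produced by the authors with RMA on Affymetrix exon arrays.

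Collagens are trimeric proteins built from long glycine-rich repeats; some assemble into fibrils, collagen IV forms the sheet of basement membranes, and others decorate fibrils or span the cell membrane. Laminins are cross-shaped trimers of 1 alpha, 1 beta and 1 gamma chain that organise the basement membrane and promote neurite outgrowth. Integrins are heterodimers of an alpha and a beta chain that couple these matrix proteins to the actin cytoskeleton, and the alpha chain largely sets which ligand is bound. A gene was called raised or lowered when the adjusted p of limma's linear model, after Benjamini-Hochberg correction across the 22011 rows of the table, was under 0.05, and every adjusted p below comes from that model.

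Among rows with 1 symbol, the called members were integrins and laminin alpha chains, and 0 of the 38 collagens were called. Of the integrins, 6 rose (ITGA2, ITGB8, ITGAV, ITGA5, ITGB3 and ITGA3) and 2 fell (ITGB5 and ITGA9), and 2 laminin alpha chains fell (LAMA1 and LAMA4). In RNA from whole cultures, fewer cells of a type and less RNA per cell cannot be told apart. In all, 10 of 68 members were called (14.7%), where 23.8% of all genes with 1 symbol and 20.0% of all rows were called. Raised members made up 8.82% against 9.55% of all genes, and lowered members 5.88% against 14.2%, so the members as a whole were not called more often than other genes. Without control 11 the lowered members numbered 9 and all called members 15, of which 3 were collagens. Among rows with several symbols, those of COL7A1 and COL27A1 rose, as given below. The median log2 change over the members was 0.03, beside 0.00 over all rows. By family, 0 of 38 collagens, 2 of 9 laminins (22.2%) and 8 of 21 integrins (38.1%) were called, beside 23.8% of all genes. No test compared the families. Arrays of the groups did not overlap for 9 of 68 members (13.2%, against 19.9% of all genes).

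**Figure D1:**
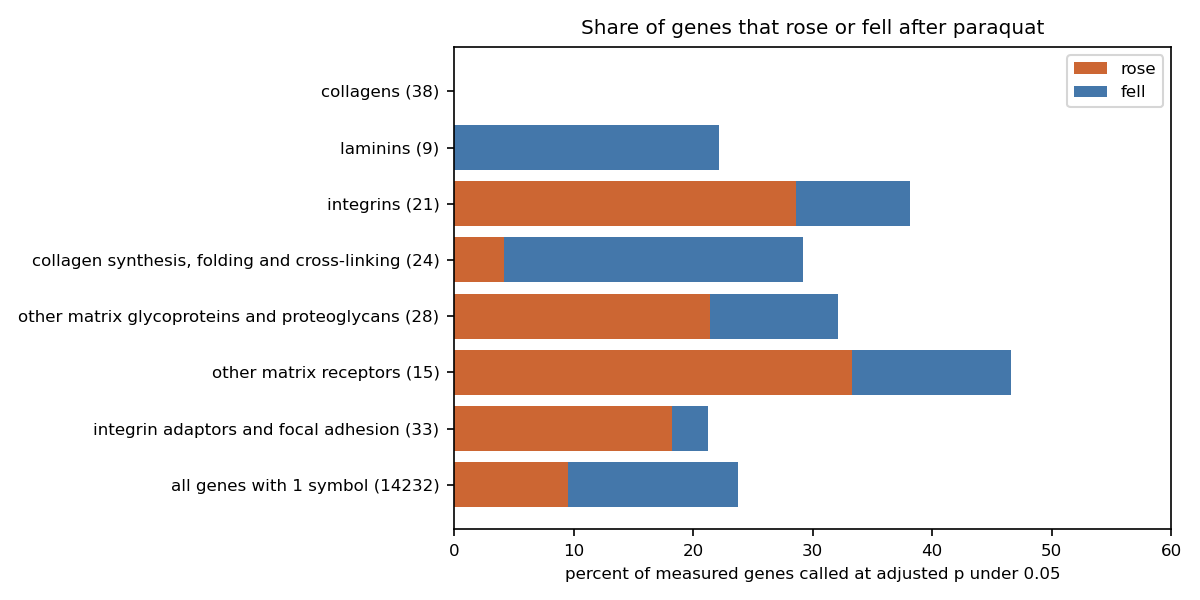
Horizontal bars give the percent of measured genes (number in parentheses) that rose or fell at an adjusted p under 0.05, for the 3 families, 4 companion lists and all genes with 1 symbol. Collagens have no called gene, integrins reach 38.1% and all genes stand at 23.8%.

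Array medians lay between 6.78 and 6.93, and the standard deviation of the members' residuals lay between 0.08 and 0.26 over the arrays, widest in paraquat 14. Control 19 had the highest control value in 32 of 68 members. Of the members, 25 (36.8%) belonged to the dimmest 33.3% of all rows, with means of up to 5.52, and are called dim below, beside 30.4% of all genes. Dim rows may hold little signal above background, which the deposited values do not show. Of these 25 members 1 (LAMA4) was called (4%, against 23.8% of all genes, dim and brighter together). Among the 43 brighter members 9 were called (20.9%), beside 30.7% of the brighter genes. The markers of sympathetic neuroblasts were present. Their mean level over 8 genes was 8.97 to 9.43 in controls and 7.92 to 8.13 after paraquat. Of the 8 markers 7 fell (87.5%, against 14.2% of all genes). All 5 endothelial markers were dim. No label tells whether the 5 arrays of each group are separate cultures; if they are not, the p-values reflect technical spread alone.

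Among the receptors, the largest change was in ITGA2 (transcript cluster 2809245), the alpha chain of a collagen receptor that pairs with the chain encoded by ITGB1. Its values were 8.09, 8.04, 8.00, 7.87 and 7.53 in controls 7, 11, 13, 17 and 19, and 9.75, 9.68, 10.36, 9.08 and 9.25 in paraquat 8, 12, 14, 18 and 20. Every paraquat array stood above every control array, with paraquat 14 the highest and control 19 the lowest. The control mean was 7.90 ± 0.23 and the paraquat mean 9.62 ± 0.50 (SD, n = 5), a 3.29-fold rise with a log2 change of 1.72 ± 0.22 (SE, adjusted p = 0.000264). It ranked 99 by size of increase among the 14232 genes. The other measured chains of the collagen-binding class, ITGA10 and ITGA11, were dim, with log2 differences of 0.03 and 0.12 and no call.

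ITGB8 (transcript cluster 2991860) encodes a beta chain that pairs with the chain of ITGAV and binds latent transforming growth factor beta. It had values of 7.60, 7.28, 7.28, 7.23 and 6.98 in the controls, in the order given above, and of 9.31, 8.60, 9.26, 8.51 and 8.68 after paraquat. The groups did not overlap; control 7 was the highest control and paraquat 8 the highest treated array. ITGB8 rose 3.03-fold (log2 change 1.60 ± 0.18, adjusted p = 0.000115) and ranked 117 by size of increase.

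Of all 14232 genes 285 were called and raised at least 2-fold, and among the 68 members only ITGA2 and ITGB8 were. The 250 bases before their annotated starts are shown, with those of ITGA5, because these 3 raised integrins have a single start in the RefSeq table of GRCh38.p14. They run 5′ to 3′ on the strand of the gene, and capitals mark GC boxes, the letters GGGCGG or their reverse complement CCGCCC. ITGA2 lies on the plus strand at chr5:52989102-52989351, ITGB8 on the plus strand at chr7:20330650-20330899 and ITGA5 on the minus strand at chr12:54419267-54419516.
ITGA2: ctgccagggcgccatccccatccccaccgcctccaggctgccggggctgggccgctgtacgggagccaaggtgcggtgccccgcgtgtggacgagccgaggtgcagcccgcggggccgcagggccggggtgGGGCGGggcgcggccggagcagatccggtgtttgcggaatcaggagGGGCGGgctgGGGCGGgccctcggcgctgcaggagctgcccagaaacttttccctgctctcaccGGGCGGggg
ITGB8: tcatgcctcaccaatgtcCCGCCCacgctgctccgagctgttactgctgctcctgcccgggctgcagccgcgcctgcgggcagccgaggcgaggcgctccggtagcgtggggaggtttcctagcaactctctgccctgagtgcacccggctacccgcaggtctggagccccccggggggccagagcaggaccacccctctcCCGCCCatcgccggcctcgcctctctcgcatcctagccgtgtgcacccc
ITGA5: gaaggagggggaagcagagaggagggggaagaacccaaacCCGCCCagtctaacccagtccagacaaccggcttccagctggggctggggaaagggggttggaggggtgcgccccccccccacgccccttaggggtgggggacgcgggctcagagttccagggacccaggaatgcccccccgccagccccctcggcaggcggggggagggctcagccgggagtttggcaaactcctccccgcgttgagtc
The 3 windows held 4, 2 and 1 GC boxes, and their content of G and C was 76.4%, 71.2% and 70.0%. Over all 35116 windows of this length in the table, 42.6% held a GC box. A window was listed for 46 of the 68 members and 6 of the 10 called genes, 62 and 9 windows in all with alternative starts; 31 of the 62 and 5 of the 9 held a GC box. The AP-1 site TGANTCA, read on both strands, was found in 0 of the 9 windows of called genes and in 1 of the 62 (COL10A1), beside 6.57% of all windows. The CCAAT box (CCAAT or ATTGG) was in 14 of the 62 windows and 1 of the 9 (ITGB8), beside 32.0% of all, and the TATA box (TATAAA or TTTATA) in 6 and 0, beside 10.7%. These matches describe letters in the window and are not evidence of binding.

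ITGAV (transcript cluster 2519229) encodes the alpha chain shared by several receptors for vitronectin, fibronectin and latent growth factor complexes. Its control values were 8.81, 8.40, 8.67, 8.42 and 8.14 and its paraquat values 9.62, 9.27, 9.85, 9.06 and 9.36. The groups did not overlap, and the rise was 1.92-fold (log2 change 0.94 ± 0.17, adjusted p = 0.00216). The known beta partners of this chain were measured in full and went in different directions. ITGB8 rose as given, and ITGB3, whose product forms the classical vitronectin receptor with that of ITGAV, had values of 6.15, 6.30, 6.32, 6.33 and 5.97 in controls and 6.88, 6.88, 7.13, 6.49 and 6.31 after paraquat. Paraquat 20, at 6.31, lay below 2 of the controls, so the groups overlapped; ITGB3 rose by 0.53 ± 0.15 (adjusted p = 0.0320), and the call was lost in 10 of 19 alternative analyses, among them those without control 7, 17 or 19 or without paraquat 8, 12 or 14, where the adjusted p lay between 0.0509 and 0.0742.

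ITGB5, which encodes another vitronectin-binding partner of ITGAV, changed the opposite way. Its values were 8.75, 8.63, 8.71, 8.52 and 8.55 in controls and 8.05, 7.81, 7.92, 7.53 and 7.62 after paraquat. No paraquat array reached the lowest control. ITGB5 (transcript cluster 2692816) fell 1.80-fold (log2 change -0.85 ± 0.11, adjusted p = 0.000286). ITGB6, an epithelial partner, was dim, with a change of 0.03 (95% interval -0.16 to 0.22). ITGB1, which encodes the beta chain shared by most matrix-binding integrins, had values from 10.79 to 10.96 in controls and from 10.74 to 11.02 after paraquat, with a change of -0.01 (95% interval -0.19 to 0.17) whose sign turned with the scaling (0.03 after median centring and 0.06 after quantile normalization). That interval does not reach the changes of ITGB5, ITGB8 or ITGAV.

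**Figure D2:**
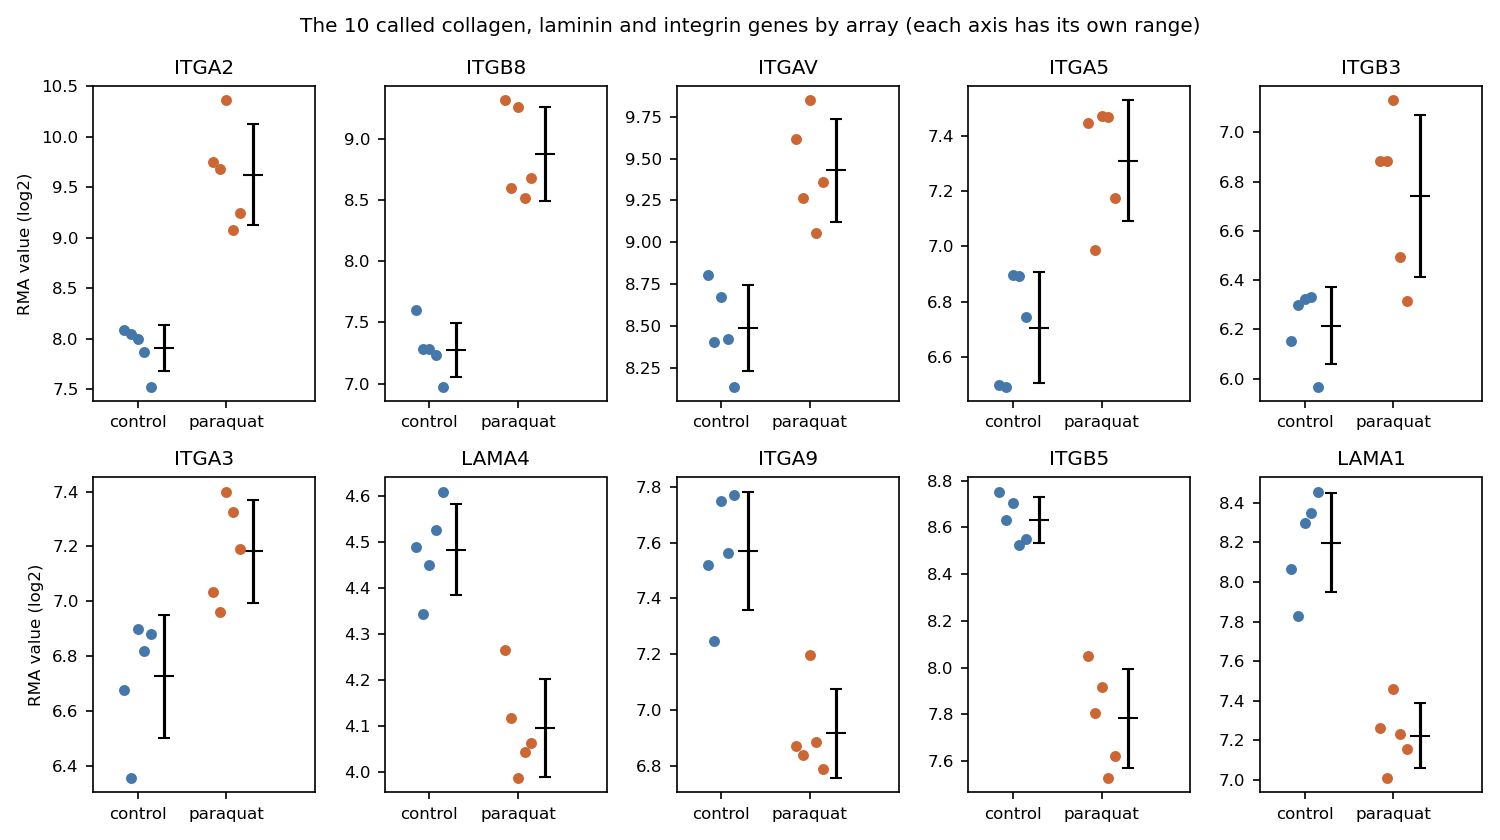
Each panel plots the RMA values (log2) of 1 called gene in 5 control and 5 paraquat arrays as points, in the order of the array numbers, with the mean and SD beside them; the panels have separate axes. Only ITGB3 has arrays that overlap between the groups.

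Among the fibronectin and laminin receptors, ITGA5 and ITGA3 rose by smaller amounts. ITGA5, the alpha chain of the main fibronectin receptor (transcript cluster 3456732), had values of 6.50, 6.49, 6.90, 6.89 and 6.74 in controls and 7.45, 6.99, 7.47, 7.47 and 7.18 after paraquat. The groups were separate but close, with paraquat 12 nearest to the controls, and the change was 0.61 ± 0.13 (adjusted p = 0.00674). ITGA3, the alpha chain of a laminin receptor (transcript cluster 3726154), had values of 6.68, 6.36, 6.90, 6.82 and 6.88 in controls and 7.03, 6.96, 7.40, 7.33 and 7.19 after paraquat. Control 11 was the lowest array, the groups did not overlap, and the change was 0.46 ± 0.13 (adjusted p = 0.0274). That call was lost in 6 of 19 alternatives, among them those without control 7 and without paraquat 14, 18 or 20, where the adjusted p lay between 0.0595 and 0.0662. The other laminin-binding chains did not pass: ITGA6 had a change of -0.21 (95% interval -0.56 to 0.14) and ITGA7 of -0.17 (95% interval -0.40 to 0.06).

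ITGA9, which pairs with the chain of ITGB1 and binds tenascin C and osteopontin, fell. Its values were 7.52, 7.25, 7.75, 7.56 and 7.77 in controls and 6.87, 6.84, 7.20, 6.89 and 6.79 after paraquat. The groups were separated by a narrow gap, between control 11 at 7.25 and paraquat 14 at 7.20, the latter standing above the other treated arrays. The change of ITGA9 (transcript cluster 2617188) was -0.65 ± 0.12 (adjusted p = 0.00270). Chains of leukocyte integrins were not called: ITGAL and ITGAX were dim, with changes of 0.08 and 0.07, and ITGB2, their beta chain, had a change of 0.14 (adjusted p = 0.401). Of 5 leukocyte markers measured (ITGB2 among them), 2 rose (40%, against 9.55% of all genes). These were CD68 and CD14, by 1.33 and 0.64, while PTPRC and CD3E were dim. The mean of this marker list was 4.62 to 4.91 in controls and 5.12 to 5.29 after paraquat, and its part in the integrin changes was not tested. ITGB4, a partner of ITGA6, had a change of 0.00, ITGB7 of 0.22 (adjusted p = 0.151), ITGA2B of 0.04 and ITGA8 of 0.02.

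Among the ligands, 2 of the 4 measured laminin alpha chains fell (2 of all 9 laminins, 22.2%), where 14.2% of all genes fell. LAMA1 (transcript cluster 3797561), the alpha chain of the laminin of early embryonic basement membranes and a strong substrate for neurite outgrowth, had values of 8.06, 7.83, 8.30, 8.35 and 8.46 in controls and 7.26, 7.01, 7.46, 7.23 and 7.16 after paraquat. Every paraquat array lay below every control. LAMA1 fell 1.96-fold (log2 change -0.97 ± 0.13, adjusted p = 0.000377), the largest decrease among the 68 members, and ranked 356 by size of decrease among all genes. LAMA4 (transcript cluster 2970086), an alpha chain found around vessels, muscle and nerve, had values of 4.49, 4.34, 4.45, 4.53 and 4.61 in controls and 4.26, 4.12, 3.99, 4.04 and 4.06 after paraquat. The groups did not overlap, and the change was -0.39 ± 0.08 (adjusted p = 0.00715), but the row is dim, so its size is uncertain. LAMA5, the broadly expressed alpha chain, had a change of -0.52 (adjusted p = 0.0904) that passed without control 11 (-0.67, adjusted p = 0.0143), and LAMA2 was dim with a change of 0.05.

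The shared beta and gamma chains of laminin were not called. LAMB1, LAMB2 and LAMC1 had changes of -0.25 (95% interval -0.49 to -0.02), -0.31 (-0.54 to -0.08) and 0.35 (0.01 to 0.68), with adjusted p of 0.122, 0.0604 and 0.147. LAMB1 and LAMC1 encode the partners of several alpha chains, LAMA1 included. LAMC1 lay between 9.78 and 10.30 in controls and between 10.18 and 10.91 after paraquat, with paraquat 14 the highest. LAMB4 and LAMC3 had changes of 0.18 and 0.12. At an unadjusted p under 0.05, 7 of the 9 laminins would pass (77.8%), against 34.8% of all genes. LAMB2 passed without control 11 (adjusted p = 0.0404), without paraquat 8 (adjusted p = 0.0480), without the dim rows and with array weights. Without control 11, 4 of the 9 laminins were called.

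**Figure D3:**
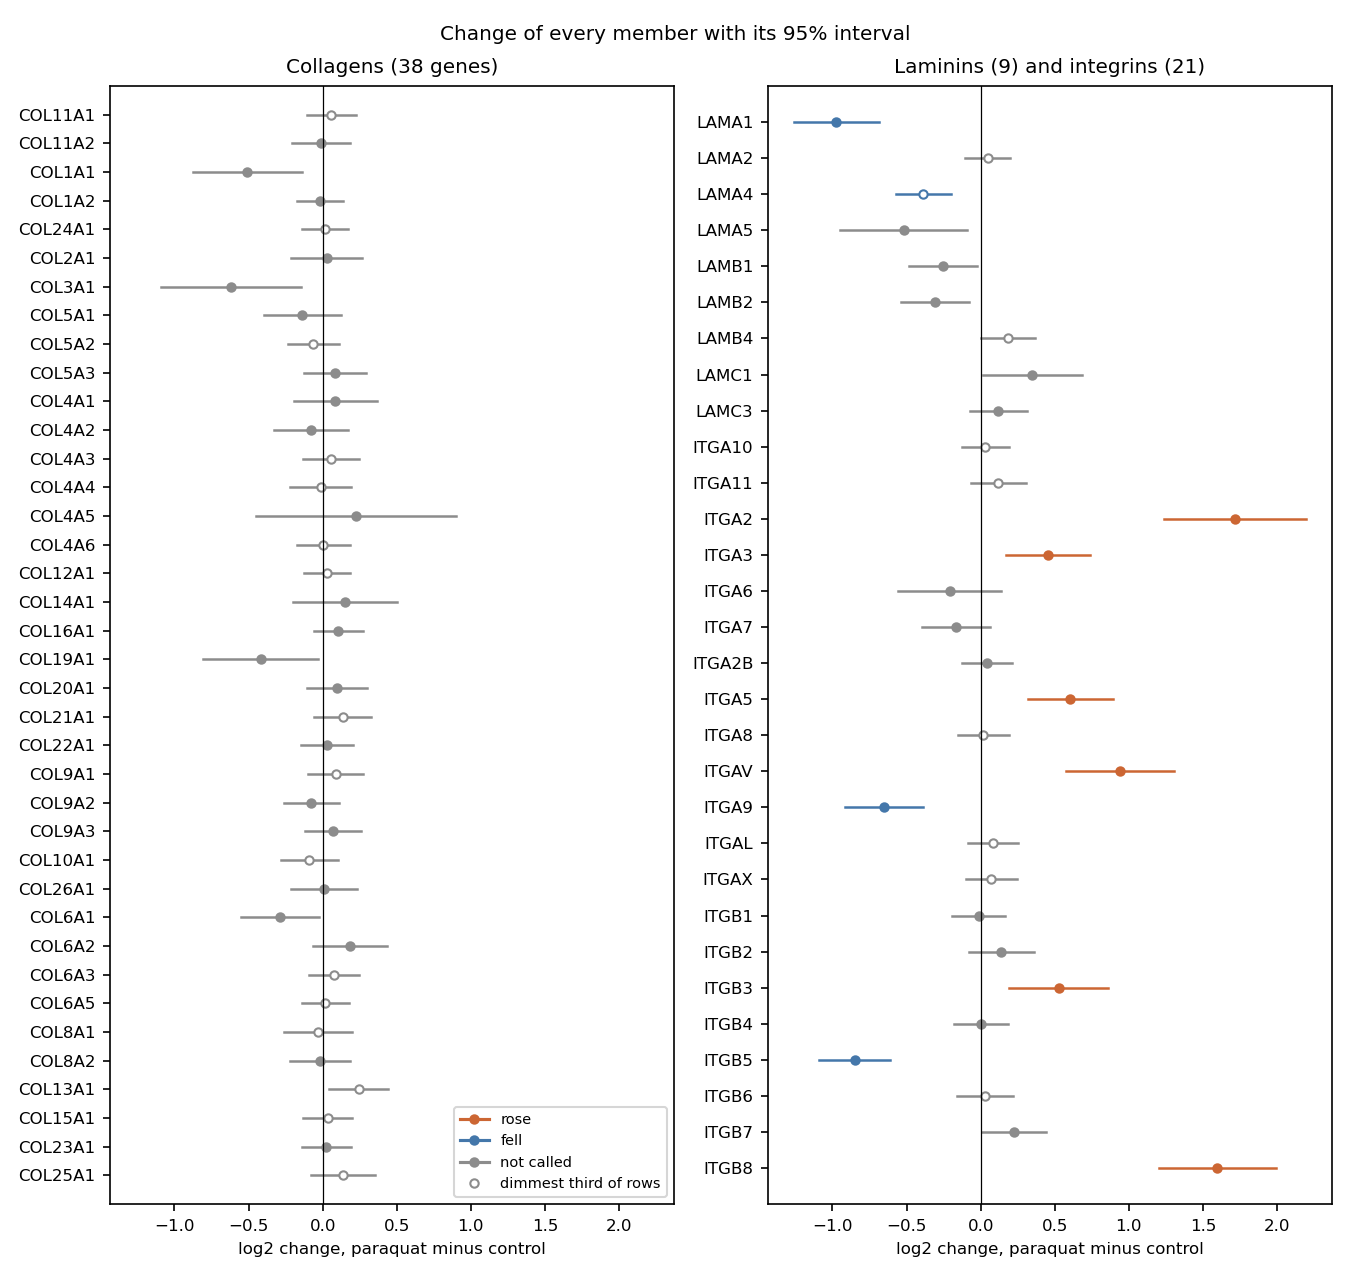
Points give the log2 change (paraquat minus control) of each of the 68 members and lines its 95% interval, collagens on the left and laminins and integrins on the right; open points mark dim rows. Changes of collagens run from -0.62 to 0.24, those of laminins from -0.97 to 0.35 and those of integrins from -0.85 to 1.72.

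Of the 38 collagens 0 were called by limma, and 5 had an unadjusted p under 0.05 (13.2%, against 34.8% of all genes). The changes ran from -0.62 to 0.24 with a median of 0.03, and 26 of the 38 were smaller than 0.1 in size. Of the collagens 16 were dim, for which a change would be hard to see. All 10 measured fibrillar collagens were without a call. The largest change in this class was in COL3A1, the fibrillar collagen of elastic tissues, with 10.34 ± 0.35 in controls and 9.72 ± 0.41 after paraquat (mean ± SD). Paraquat 14, at 10.17, lay above controls 11 and 17, so the groups overlapped, and the change was -0.62 ± 0.21 (95% interval -1.09 to -0.15, adjusted p = 0.0666). COL1A1, a chain of the main fibril of skin and bone, had values of 7.24, 7.05, 7.76, 7.57 and 7.95 in controls and 6.87, 6.81, 7.06, 7.22 and 7.08 after paraquat, and was the collagen nearest to the threshold, for which it is named (-0.51 ± 0.17, adjusted p = 0.0534). Its partner COL1A2 had a change of -0.02.

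The count of 0 depended on single arrays. Without control 11, 3 collagens were called (COL1A1, COL3A1 and COL19A1, all downward), without paraquat 14 there were 2 (COL3A1 downward and COL13A1 upward), and without control 7 there was 1 (COL1A1). Leaving out control 11 and paraquat 12 together gave 2 (COL1A1 and COL19A1). With array weights, under which more rows of the whole table were called too, 4 collagens were called. With the dim rows removed, which lowers the number of tests, 2 were called. With neighbouring title numbers (7 and 8, and so on) as a block, a pairing that the labels do not state and that was tried after seeing the data, 3 were called (COL1A1, COL3A1 and COL19A1). No collagen was called after quantile normalization or median centring of the arrays.

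The chains of collagen IV, the network of basement membranes, were without a call in all 6 cases. COL4A1 and COL4A2, which together form its most widespread trimer, had changes of 0.08 (95% interval -0.19 to 0.36) and -0.08 (-0.33 to 0.17). Their genes lie head to head, and the 126 bases between their starts, on chromosome 13 of GRCh38.p14 at chr13:110307158-110307283, are shown on the plus strand, which is that of COL4A2, with the GC box in capitals, because the pair shares this stretch and neither chain was called.
COL4A1 and COL4A2: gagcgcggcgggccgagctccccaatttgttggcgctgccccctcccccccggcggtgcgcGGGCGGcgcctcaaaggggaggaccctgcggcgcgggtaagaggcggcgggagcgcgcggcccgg
COL4A5, a chain of glomerular and neuromuscular basement membranes, had the widest spread of the class: its values were 5.76, 5.94, 4.88, 5.84 and 5.99 in controls and 6.11, 6.10, 4.78, 6.42 and 6.12 after paraquat. Control 13 and paraquat 14 stood far below the other arrays of their groups, and the change was 0.23 ± 0.31 (adjusted p = 0.692). COL4A3, COL4A4 and COL4A6 were dim, with changes of 0.05, -0.01 and 0.00.

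In the remaining classes, the largest changes without a call were in COL19A1 (-0.42 ± 0.18, adjusted p = 0.133), which associates with fibrils, in COL6A1 (-0.29 ± 0.12, adjusted p = 0.130), a chain of the beaded filaments of collagen VI, and in COL13A1 (0.24 ± 0.09, adjusted p = 0.0857), a transmembrane collagen of the neuromuscular junction whose row is dim. COL6A2, a partner of COL6A1, had a change of 0.18 (95% interval -0.07 to 0.44), and COL14A1 of 0.15. In the RefSeq table of GRCh38.p14, 7 pairs of members were adjacent protein-coding genes, 6 of them collagens and 1 of laminins (LAMB1 and LAMB4). Of these 14 genes 0 were called, beside 23.8% of all genes. Since no collagen was called, the 6 collagen pairs could hold no called gene, and the count says nothing of adjacency.

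**Figure D4:**
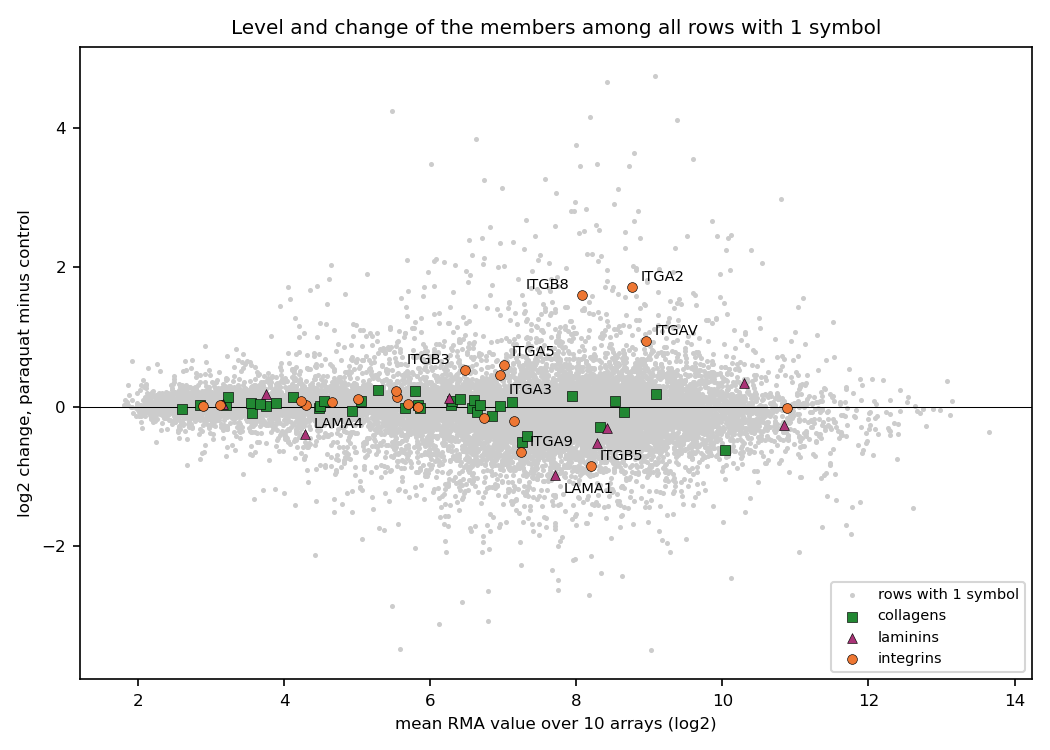
The mean RMA value over the 10 arrays (log2, horizontal) is plotted against the log2 change (paraquat minus control, vertical) for all rows with 1 symbol in grey and for the members as squares (collagens), triangles (laminins) and circles (integrins). The called members are labelled; apart from LAMA4 they lie to the right of the dim rows, which end at 5.52.

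Rows annotated to several symbols did not count as members, and 11 of them carry a collagen, laminin or integrin name. Of these, 3 rose and 1 fell, where 8.51% of all rows rose and 11.5% fell. A row of LAMB3, a beta chain of epithelial laminin, and MIR4260 rose by 0.78 ± 0.11 (adjusted p = 0.000398). A row of COL7A1, the collagen of anchoring fibrils, and MIR711 rose by 0.46 ± 0.08 (adjusted p = 0.00204), and a row of the fibrillar COL27A1 and MIR455 by 0.39 ± 0.09 (adjusted p = 0.0130). The statement that no collagen was called thus covers only rows with 1 symbol. The integrin chain ITGA4 shares 2 rows with CERKL: a dim one fell by 0.63 on the log2 scale (adjusted p = 0.00121), and the brighter one had a change of 0.14 (adjusted p = 0.703). A row of ITGA1, the other well-known collagen-binding alpha chain, and PELO had a change of 0.05.

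Genes that act with the members were described from 4 lists. Among 33 measured genes of integrin adaptors and focal adhesion, 6 rose and 1 fell (21.2%, against 23.8% of all genes), with a list median of 0.02. PXN, the scaffold paxillin, rose by 1.11 ± 0.16 (adjusted p = 0.000597), ZYX, the stretch-sensitive protein zyxin, by 0.99, FERMT3, a kindlin that activates integrins, by 0.75, and TGFB1I1, a relative of paxillin, by 0.73. KANK2, which links talin to microtubules, fell (-0.40, adjusted p = 0.0480), a call lost in 11 of 19 alternatives, 6 of them leaving out 1 array (control 13, 17 or 19, or paraquat 8, 12 or 20). VCL, which encodes vinculin, rose by 0.55. The kinase PTK2 and the integrin-linked kinase ILK had differences of -0.20 and -0.04 and were not called.

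Among 15 other matrix receptors, 5 rose and 2 fell (46.7%, against 23.8% of all genes; median -0.03). The hyaluronan receptor CD44 rose by 1.67 ± 0.15 (adjusted p = 3.1e-05) and the proteoglycan SDC4, a co-receptor of integrins in focal adhesions, by 1.16. NRP1 rose by 0.60, and the collagen receptor kinases DDR2 and DDR1 by 0.59 and 0.40. The call of NRP1 was lost in 4 of 19 alternatives, among them without control 17 (adjusted p = 0.0526) and without paraquat 8 (adjusted p = 0.0504), and those of DDR1 and DDR2 in 2 each. The syndecans SDC2 and SDC1 fell by 0.91 and 0.57 on the log2 scale, opposite to SDC4.

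Among 28 other matrix glycoproteins and proteoglycans, 6 rose and 3 fell (32.1%, against 23.8% of all genes; median 0.03). TGFBI, a secreted protein that binds collagen and integrins, rose by 1.93 ± 0.19, CCN1, an integrin ligand, by 1.83 and TNC, which is tenascin C and a ligand of ITGA9, by 0.92. NID2, a nidogen that bridges laminin to collagen IV, fell (-1.10 ± 0.14, adjusted p = 0.000340), as did the proteoglycan VCAN (-0.81) and the microfibril protein FBN1 (-0.66), while NID1 had a change of 0.08 and FN1, fibronectin, of 0.50 (adjusted p = 0.152).

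Among 24 genes of collagen synthesis, folding and cross-linking, 6 fell and 1 rose (29.2%, against 23.8% of all genes; median -0.13). The procollagen protease ADAMTS2 fell by 0.65 on the log2 scale (adjusted p = 0.00119), the lysyl oxidase LOX by 0.60 (adjusted p = 0.0462), the prolyl isomerase FKBP14 by 0.58 and the collagen galactosyltransferase COLGALT1 by 0.54. LOXL2, a lysyl oxidase relative, rose by 0.50. The collagen chaperone SERPINH1 had a change of 0.03 (adjusted p = 0.864). The genes that rose or fell alone in a list, and SDC1, DDR1, DDR2, VCAN, FBN1, VCL, PTK2, ILK, NID1, FN1 and SERPINH1, were named after their values were seen. The call of LOX was lost in 11 of 19 alternatives (8 of them leaving out 1 array, all except control 11 and paraquat 14), that of LOXL2 in 6 (among them without control 7 and without paraquat 14, 18 or 20) and that of FKBP14 in 3 (among them without control 11 and paraquat 12 together, adjusted p = 0.0505), and the count of this list was 4 without paraquat 20.

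**Figure D5:**
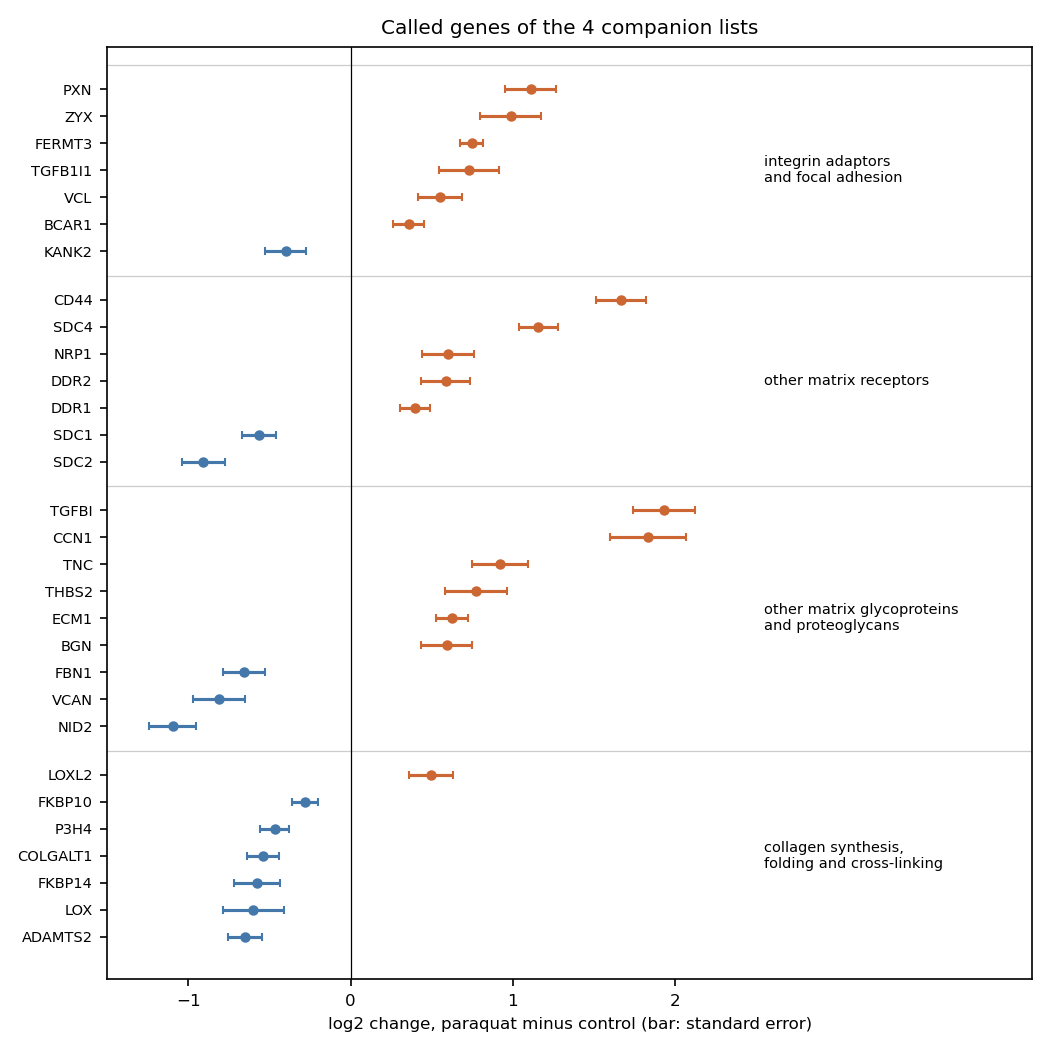
Points give the log2 change (paraquat minus control) and bars its standard error for the 30 called genes of the 4 companion lists. Among adaptors and other receptors most called genes lie to the right of 0, and in collagen synthesis, folding and cross-linking all except LOXL2 lie to the left.

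Fibroblast and mesenchymal markers moved in both directions beside these genes: SNAI2 rose by 1.97, and LUM, THY1 and TWIST1 fell by 1.53, 1.16 and 0.59 on the log2 scale, with a mean of the 8 measured markers of 7.62 to 8.27 in controls and 7.40 to 7.80 after paraquat. Of these 8 mesenchymal markers 4 were called (50%, against 23.8% of all genes). None of 4 glial, 5 endothelial and 5 epithelial markers was called by limma, beside 23.8% of all genes. Among them 2 glial, all 5 endothelial and 2 epithelial markers were dim. Only KRT18 (an epithelial keratin, named after its value was seen) had an unadjusted p under 0.05, where 34.8% of all genes did. The part of these markers in the changes of integrins and laminins was not tested.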

How the data were processed

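SH-SY5Y cells without (5 arrays) and with paraquat (5 arrays) were profiled on Affymetrix exon arrays. The deposited values are log2 expression per transcript cluster, made by the authors with RMA, per the submitters' processing notes; the sources used here name no build for the probe annotation. The values were used as deposited. Probe symbols came from the platform annotation: 14432 rows had 1 symbol, 2408 several and 5171 none, and 14404 of the first matched RefSeq (GRCh38.p14). R 4.3.3 with limma 3.58.1 (lmFit, eBayes) compared the groups over 22011 rows, with group as the only term, 8 residual and 3.06 prior degrees of freedom, and Benjamini-Hochberg adjustment over all rows. The median SE was 0.092 for members and 0.13 over all rows; precision is limited by the number of arrays. The fit was tested on simulated data. Members, gene lists and tests were chosen with earlier results of these data known, and motifs after values were seen. Named were all called members, the partners of called chains and, in each class, the member with the largest change that did not pass. Up to 4 called genes of each companion list were also named, and other companion genes are marked in the text. Further members without a call, such as COL14A1, ITGA8, LAMA2 and LAMC3, were named outside this rule, and not all are marked. Alternatives were the scaling, a filter on dim rows, array weights, an intensity trend, a minimum fold, a stricter threshold, the mean of a gene's rows and leaving out arrays, with a block on neighbouring title numbers added after seeing the data.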

Additional observations from a re-analysis of the deposited data

Results flagged for a closer look

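In 46 groups of 5 arrays (23 members that the text describes, each in both groups), 3 arrays stood apart from the rest of their group by more than Dixon's 95% limit, which chance alone exceeds in about 1 of 20 groups. For ITGA9, paraquat 14 had a value of 7.20, while the other treated arrays lay between 6.79 and 6.89. For COL4A5, control 13 had a value of 4.88, while the other controls lay between 5.76 and 5.99. For COL4A5, paraquat 14 also had a low value, 4.78, while the other treated arrays lay between 6.10 and 6.42. Without paraquat 14 or any other single array the change of COL4A5 lay between 0.03 and 0.51 and was not called.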

How the results depend on the processing

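No called member or called gene of the companion and marker lists changed direction under the 19 alternatives. The sign turned under at least 1 of them for 20 of the 68 members, ITGB1 among them, all without a call. Deposited changes of the members and listed genes whose sign turned were at most 0.13 in size. The filter on dim rows, the intensity trend, the minimum fold and the stricter threshold leave the changes as they are. No sign could turn under these. For members the same holds for the mean of a gene's rows, as each member is on a single row. ITGA2, ITGAV, ITGB8, ITGA9, ITGB5 and LAMA1 were called in all 19, ITGA5 in 18, LAMA4 in 17 of the 18 that tested it, ITGA3 in 13 and ITGB3 in 9. The mean of a gene's rows is 1 of these alternatives and leaves the members' own values unchanged, so it adds nothing to these counts. Leaving out 1 array at a time gave 3396 to 4708 called rows, 9 to 15 called members (4 to 6 raised, 4 to 9 lowered), 0 to 3 collagens, 2 to 4 laminins and 6 to 8 integrins. The companion lists then had 4 to 10 called genes in collagen synthesis, 8 to 11 in glycoproteins, 6 to 8 in receptors and 6 to 9 in adaptors. Leaving out control 11 and paraquat 12 gave 7 lowered members and 2 collagens. Without the dim rows, which lowers the number of tests, 2 collagens were called. With array weights more rows of the whole table were called than without them, so the gain in calls was not confined to the members. Under these weights 17 members were called (10 lowered), with 4 collagens, 5 laminins, 14 genes of collagen synthesis and 14 glycoproteins. Testing against a minimum fold of 1.2 left 1648 rows, 6 members (3 raised), 1 laminin, 5 integrins, 1 gene of collagen synthesis, 3 receptors and 3 adaptors. A threshold of 0.01 left 2492 rows, 3 genes of collagen synthesis, 4 receptors and 3 adaptors. Median centring moved the median change of the members to 0.078 and of all rows to 0.05. The share of called rows that rose was 42.6% as deposited, 47.1% after quantile normalization and 50.3% after median centring. Where the construction of an alternative does not show it, the cause was not tested. The groups share no replicate number, and the labels state no pairing of neighbouring ones (7 and 8, 11 and 12, 13 and 14, 17 and 18, 19 and 20). Deviations from the group means correlated across rows by 0.226, 0.461, 0.091, 0.172 and 0.121 in these pairs. The highest correlation of controls 7, 11, 13, 17 and 19 with another paraquat array was 0.096, 0.024, 0.176, 0.095 and 0.317. Controls 7, 11 and 17 and paraquat 8, 12 and 20 correlated best with their neighbour, and the other arrays did not. With this pairing as a replicate block, chosen after seeing the data, 16 members were called (9 lowered), with 3 collagens and 5 laminins; all 10 called members kept their call, and COL1A1, COL3A1, COL19A1, LAMA5, LAMB2 and LAMC1 were gained. Low signal limits what can be said of the 25 dim members.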
